A study of Mus musculus with 12 samples.

Results

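The genes described here encode the cytotoxic granule proteases granzyme A, B, C, K and M (Gzma, Gzmb, Gzmc, Gzmk and Gzmm), the pore-forming protein perforin (Prf1), the granule-associated proteins cathepsin W and Nkg7 (Ctsw and Nkg7), and the intracellular protease inhibitors Serpinb9 and Serpinb6b. The 10 genes were taken by symbol, with earlier results of these data known, and each had 1 probe set among the 23185 tested. The series measured RNA of splenic CD4+ T cells from mice on 12 whole-transcript arrays, 3 for each of 4 groups. The groups were Lck-Cre+;Ikzf-/- cells activated over 24 hours by anti-CD3 bound to the plate together with anti-CD28 in solution (Cre+ activated), Lck-Cre-;Ikzf+/+ cells treated in the same way (Cre- activated), Lck-Cre+;Ikzf-/- cells left untreated (Cre+ baseline) and Lck-Cre-;Ikzf+/+ cells left untreated (Cre- baseline). Ikaros is a zinc finger protein encoded by Ikzf1, and the Cre that deleted it was expressed from the Lck promoter, which is active in T lineage cells. No group carried Cre with intact Ikaros, and none was kept for 24 hours without the antibodies, so Cre itself and Ikaros loss, and culture and activation, cannot be told apart. The animals' strain and age were not known here. The labels do not say whether each array had its own animal, so the p-values describe only how much these samples varied, which may in part be technical.

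Cytotoxic lymphocytes kill by releasing granules, in which perforin opens the target membrane and granzymes, a family of serine proteases, enter and cleave proteins inside. The lymphocyte itself is exposed to its own granzymes and makes cytosolic serpins that trap them. In the mouse, Serpinb9 inhibits granzyme B and Serpinb6b inhibits granzyme A. CD8 T cells and natural killer (NK) cells are the classical users of this pathway, and CD4 T cells express parts of it after stimulation.

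The promoter windows of 4 genes are shown because the results turn on them: Prf1 and Serpinb6b differed between genotypes at rest, and Gzmb and both serpins rose with activation. The sequences are from RefSeq on GRCm38.p6 and run 5′ to 3′ on the gene's strand, from 250 bases before to 50 bases after a transcript start of the RefSeq table. That start is the outermost one of the gene for Gzmb, and it lies inside the annotated gene by 85 bases for Prf1, 8450 bases for Serpinb6b and 7480 bases for Serpinb9, so the windows of these 3 genes belong to internal transcript starts. The capitals mark matches, on either strand, to the motifs TGGGAA (the Ikaros core), TTCNNNGAA (STAT), TGANTCA (AP-1), TGTGGT (Runx) and TCACAC (T-box core). The windows lie at chr10:61297586-61297885 on the plus strand (Prf1), chr13:32965011-32965310 plus (Serpinb6b), chr14:56262285-56262584 minus (Gzmb) and chr13:33004291-33004590 plus (Serpinb9).
Prf1: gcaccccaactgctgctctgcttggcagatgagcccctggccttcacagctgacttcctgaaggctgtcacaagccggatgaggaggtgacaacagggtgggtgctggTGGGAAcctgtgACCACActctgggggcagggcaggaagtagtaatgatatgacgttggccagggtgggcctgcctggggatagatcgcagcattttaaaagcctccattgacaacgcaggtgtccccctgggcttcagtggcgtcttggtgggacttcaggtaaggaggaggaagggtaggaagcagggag
Serpinb6b: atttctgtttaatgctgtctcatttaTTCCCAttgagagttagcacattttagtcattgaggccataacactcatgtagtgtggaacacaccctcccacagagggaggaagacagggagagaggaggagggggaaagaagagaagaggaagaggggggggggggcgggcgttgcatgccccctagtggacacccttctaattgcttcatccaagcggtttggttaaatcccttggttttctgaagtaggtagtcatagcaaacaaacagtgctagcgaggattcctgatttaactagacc
Gzmb: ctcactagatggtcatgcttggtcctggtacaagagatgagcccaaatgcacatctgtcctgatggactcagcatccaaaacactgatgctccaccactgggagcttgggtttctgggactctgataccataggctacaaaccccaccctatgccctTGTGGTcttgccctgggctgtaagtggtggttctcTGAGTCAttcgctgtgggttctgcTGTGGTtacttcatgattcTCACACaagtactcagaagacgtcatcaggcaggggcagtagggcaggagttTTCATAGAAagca
Serpinb9: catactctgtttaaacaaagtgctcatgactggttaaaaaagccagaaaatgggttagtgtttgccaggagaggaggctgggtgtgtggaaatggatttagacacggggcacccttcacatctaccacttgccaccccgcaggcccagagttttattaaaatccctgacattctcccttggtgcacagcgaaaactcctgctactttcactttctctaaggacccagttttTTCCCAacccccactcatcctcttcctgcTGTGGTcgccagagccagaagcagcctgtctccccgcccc
The Ikaros core stood 142 bases before this start in the Prf1 window, 224 before it in that of Serpinb6b and 19 before it in that of Serpinb9. The Gzmb window held an AP-1 motif 58 bases before the start, Runx motifs at 93 and 34 bases, a T-box core at 15 bases and a STAT motif after the start. No matches overlapped.

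Of the 10 genes, 9 had such a window (10 windows in all, with 2 for Gzmm, and with an internal start also for Gzmc and 1 of Gzmm), and none was listed for Ctsw. The Ikaros core was in 3 of these 10 windows and in 25.6% of the 32851 windows of the RefSeq table. The Runx motif was in 7 of 10, against 16.8% of all windows, and the T-box core in 4 of 10, against 14.5%. The STAT motif was in 3 of 10, against 8.30%, and the AP-1 motif in 1 of 10, against 7.81%. These matches describe letters in the windows, and no binding was measured. Serpinb6b and Serpinb9 are neighbouring protein-coding genes on chromosome 13, Gzma and Gzmk are neighbouring protein-coding genes elsewhere on it, and Gzmb and Gzmc belong to 1 gene cluster on chromosome 14. Members of the granzyme and serpin families resemble each other in sequence, and whether probes also bound related transcripts was not tested.

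Values are log2 expression. The targeted gene is given first. Ikzf1 read 10.14, 9.93 and 9.89 in Cre+ activated cells, against 10.03, 10.22 and 10.08 in Cre- activated cells, and 10.66, 10.29 and 10.13 in Cre+ baseline cells, against 10.54, 10.52 and 10.54 in Cre- baseline cells. The genotypes overlapped in both states, and neither difference passed (limma adjusted p = 0.993 after activation and 0.968 at baseline). A probe set that spans exons left in place can read a transcript without the deleted part, and which exons it covers was not tested, so this level does not check the genotype labels. Genotypes are therefore those of the labels throughout.

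Over all probe sets the 12 array medians ran from 4.04 to 4.17, and 3 arrays a group set the precision. Cd4 read 10.48 to 11.60 over the 12 arrays, while Cd8a and Cd8b1 were also measurable, at 5.24 to 6.93 and 6.69 to 7.73. Over 13 B cell markers the mean was 8.20 to 8.32 in Cre+ baseline and 8.32 to 8.57 in Cre- baseline cells, and that of 13 NK cell markers was 4.89 to 5.38 in Cre+ baseline and 5.13 to 5.28 in Cre- baseline cells. The arrays numbered 3 of both activated groups stood apart in a mean over 17 cell cycle genes, 8.40 in Cre+ and 8.81 in Cre- activated cells, whereas the remaining Cre+ activated arrays gave 6.98 and 6.28 and the remaining Cre- activated arrays 6.35 and 6.32. Arrays of a group correlated at 0.992 or more across genes at baseline, and at 0.976 or more in Cre+ and 0.972 or more in Cre- cells after activation. Every group held arrays from mice of both sexes, by Xist and Eif2s3y, but not in equal numbers. Females gave 1 array in Cre+ activated, 2 in Cre- activated, 2 in Cre+ baseline and 1 in Cre- baseline cells. The genotypes thus differed in sex in each state, in opposite directions.

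**Figure D1:**
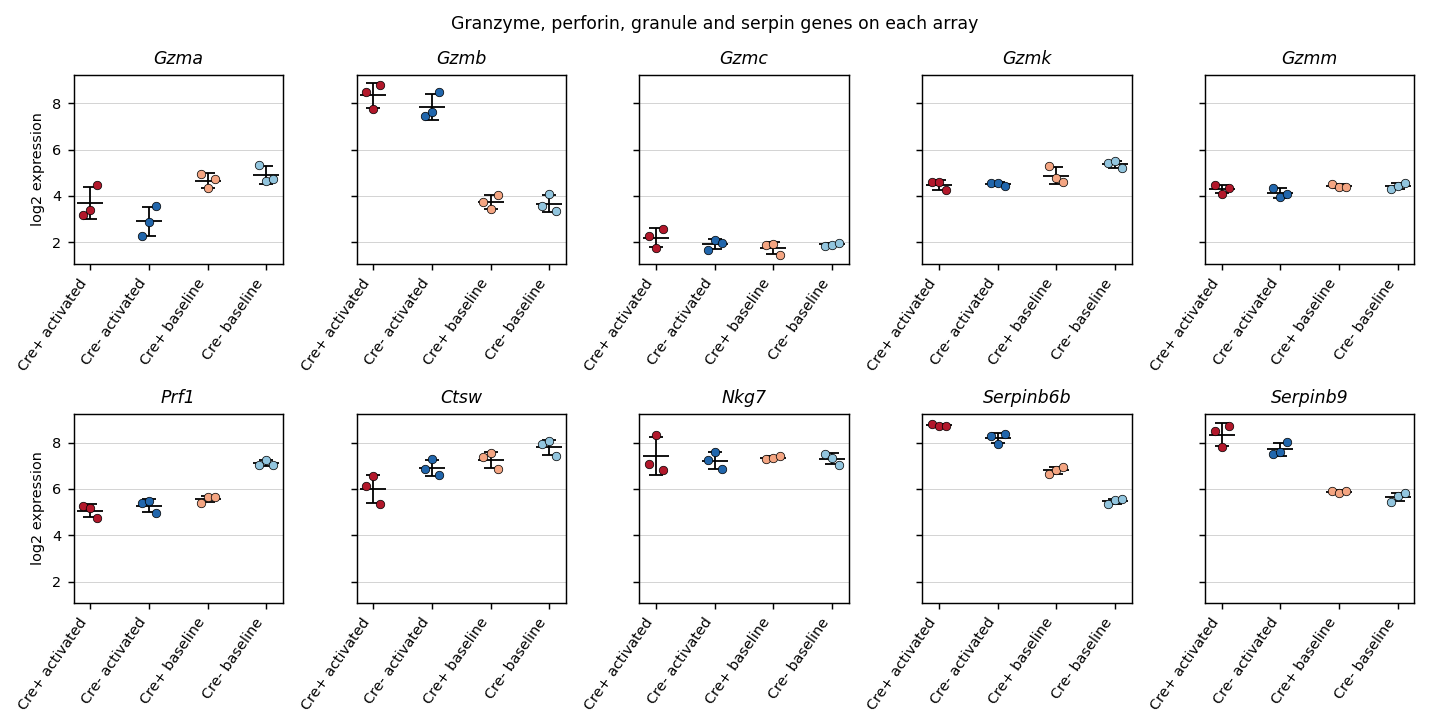
Log2 expression of the 10 genes on each array (points), with the mean and SD of the 3 arrays of a group (bars), for Cre+ activated, Cre- activated, Cre+ baseline and Cre- baseline cells from left to right. Gzmb, Serpinb6b and Serpinb9 stand higher in both activated groups, and Prf1 is highest on the 3 Cre- baseline arrays, at 7.02 to 7.25.

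In resting cells the genotypes differed in perforin and in 1 serpin, in opposite directions. Prf1 read 5.41, 5.67 and 5.64 on the Cre+ baseline arrays, against 7.03, 7.25 and 7.02 on the Cre- baseline arrays. Serpinb6b read 6.63, 6.83 and 6.94 in Cre+ baseline cells, against 5.34, 5.52 and 5.55 in Cre- baseline cells. Neither gene had overlapping groups. Prf1 was 2.88-fold lower in Cre+ cells (log2 difference -1.53, SE 0.17, limma adjusted p = 0.00125), and Serpinb6b was 2.51-fold higher (1.33, SE 0.13, limma adjusted p = 0.000549). Both genes passed in all 19 alternative settings, in which the Prf1 difference ran between -1.60 and -1.44 and that of Serpinb6b between 1.26 and 1.41. These were 2 of 10 genes with an adjusted p under 0.05, 1 higher and 1 lower, against 0.552% of all genes tested (0.492% higher and 0.0604% lower). At an unadjusted p under 0.05 the count was 3 of 10, with Gzmk as the third, against 6.93% of all genes. As the genes were chosen with earlier results of these data known, such counts are no test of the set. The share of all genes depended on single arrays, since the 128 genes called became 50 to 60 without any 1 baseline array and 199 without Cre- activated array 3.

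The granzyme genes did not pass at baseline. Gzmk, which encodes a tryptase-like granzyme, read 5.28, 4.76 and 4.60 in Cre+ baseline cells, against 5.43, 5.50 and 5.19 in Cre- baseline cells. The Cre+ array at 5.28 lay within the range of the Cre- arrays, and the difference of -0.49 (SE 0.17) had a limma adjusted p of 0.452. Gzma, also tryptase-like, differed by -0.23 (SE 0.37) and Gzmb by 0.07 (SE 0.31). Gzmc and Gzmm differed by -0.15 (SE 0.20) and 0.00 (SE 0.13). Of the genes for granule proteins, Ctsw, a cysteine protease gene of cytotoxic lymphocytes, read 7.36, 7.54 and 6.88 in Cre+ baseline cells, against 7.93, 8.05 and 7.43 in Cre- baseline cells, and its difference of -0.54 had an SE of 0.29 (limma adjusted p = 0.823). Nkg7, which encodes a granule membrane protein of killer lymphocytes, differed by 0.05 (SE 0.32).

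Serpinb9 read 5.92, 5.81 and 5.92 in Cre+ baseline cells, against 5.45, 5.68 and 5.81 in Cre- baseline cells. The lowest Cre+ and the highest Cre- array differed only beyond the second decimal, and the gene did not pass (0.24, SE 0.21, limma adjusted p = 1.000). With Prf1 and Serpinb6b it was 1 of 3 genes of 10 whose groups did not overlap, against 16.2% of all genes. The median difference of the 10 genes was -0.08, against 0.00 for all genes tested.

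Values of marker genes of other cells that could carry granule transcripts were set beside these values. None of the 13 NK cell markers and neither CD8 T cell marker passed at baseline, and the NK list had a median difference of 0.03, with 2 of 13 at an unadjusted p under 0.05. Klrd1, which encodes the NK receptor chain CD94, read 6.22, 6.15 and 6.60 in Cre+ baseline cells, against 7.37, 7.45 and 7.36 in Cre- baseline cells (-1.07, limma adjusted p = 0.357). The other of these markers, the cytokine receptor gene Il2rb, differed in the opposite direction (0.31, limma adjusted p = 0.716). The mean of the 5 gamma delta and innate-like T cell markers was 4.97 to 5.39 in Cre+ baseline cells, against 4.60 to 4.64 in Cre- baseline cells. Of these markers, 2 passed upward, Cd163l1 (2.08) and Sox13 (0.92). Zbtb16 differed by 0.33 with overlapping groups, and Il23r (-0.17) and Blk (-0.26) went the other way, none of them passing. The mean of the 5 regulatory T cell markers was 8.53 to 8.65 in Cre+ baseline cells, against 8.12 to 8.29 in Cre- baseline cells, with none passing and 1 at an unadjusted p under 0.05. Of 13 myeloid markers, 1 passed upward, Itgam (2.73, limma adjusted p = 0.000335), and the median difference of the list was -0.06. Of all genes, 0.492% were called higher at baseline. In bulk RNA, a different share of a cell type and a different amount of RNA per cell cannot be told apart, and the part of these markers in the Prf1 and Serpinb6b differences was not tested.

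**Figure D2:**
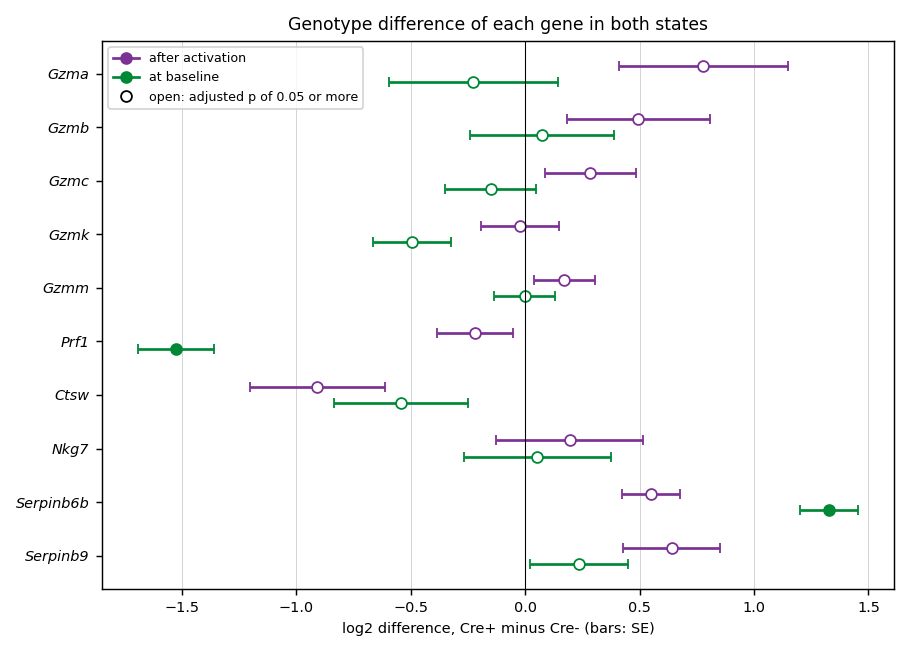
Log2 difference of Cre+ minus Cre- cells for each of the 10 genes after activation and at baseline, with the SE of the limma fit as bars. Filled points have an adjusted p under 0.05, which holds for Prf1 (-1.53) and Serpinb6b (1.33) at baseline and for no gene after activation.

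After activation no gene of the 10 passed between genotypes in the limma model with 1 mean per group, Prf1 included. Prf1 read 5.26, 5.17 and 4.74 in Cre+ activated cells, against 5.37, 5.49 and 4.98 in Cre- activated cells, and the groups overlapped (-0.22, SE 0.17, limma adjusted p = 0.919). Serpinb6b read 8.81, 8.72 and 8.73 in Cre+ activated cells, against 8.28, 7.96 and 8.38 in Cre- activated cells. Its groups did not overlap, and the difference of 0.55 (SE 0.13) had a limma adjusted p of 0.0984, which was 0.0492 without Cre- activated array 3 at a difference of 0.64. Serpinb9 read 8.51, 7.80 and 8.73 in Cre+ activated cells, against 7.50, 7.61 and 8.01 in Cre- activated cells. Cre+ array 2 lay within the Cre- range, and the difference of 0.64 (SE 0.21, limma adjusted p = 0.352) was 0.91 without that array (limma adjusted p = 0.0298).

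Gzmb, whose product cleaves after aspartate, read 8.48, 7.76 and 8.79 in Cre+ activated cells, against 7.45, 7.62 and 8.47 in Cre- activated cells (0.49, SE 0.31, limma adjusted p = 0.871). Array 3 was the highest of its group in both genotypes for Gzmb and for Serpinb9, and these were the arrays with the highest cell cycle mean. Ctsw went the other way, with 6.11, 6.54 and 5.37 in Cre+ activated cells, against 6.86, 7.27 and 6.61 in Cre- activated cells. All 3 Cre+ arrays of Ctsw lay below the Cre- arrays, and the difference of -0.91 (SE 0.29) had a limma adjusted p of 0.325. Gzma differed by 0.78 (SE 0.37), with overlapping groups at 3.19, 3.41 and 4.47 in Cre+ activated cells, against 2.29, 2.88 and 3.56 in Cre- activated cells. Gzmk, Gzmm and Gzmc differed by -0.02, 0.17 and 0.28.

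Nkg7 differed by 0.19 (SE 0.32), and that sign rested on 1 array. Cre+ activated array 2 read 8.35, against 7.08 and 6.83 on the other Cre+ activated arrays and 7.24, 7.57 and 6.87 on the Cre- activated arrays, and without it the difference was -0.27. The same array had the lowest value of its group for Gzmb and Serpinb9. Of the 13 NK markers it was the highest of its group in 7, with Klrd1 at 5.47, and the lowest in 4, with Eomes at 6.90. The NK marker mean was nearly even, at 4.46, 4.54 and 4.49 on Cre+ activated arrays 1, 2 and 3.

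The count of 0 of 10 genes after activation compares with 0.729% of all genes called in the same fit (0.63% higher and 0.0992% lower), and at an unadjusted p under 0.05 the count was 3 of 10 (Serpinb6b, Serpinb9 and Ctsw), against 7.51% of all genes. The groups of 2 of the 10 did not overlap, against 10.8% of all genes. The median difference of the 10 was 0.24, against -0.01 for all genes. The 169 genes called over all arrays became 72 when Cre+ activated array 1 was left out, and 93, 82 or 283 when array 1, 2 or 3 of the Cre- activated group was. Beside these values, the B cell marker mean was 5.86 to 7.30 in Cre+ activated cells, against 5.37 to 6.65 in Cre- activated cells, and that of the 13 NK markers was 4.46 to 4.54 in Cre+ activated cells, against 4.14 to 4.42 in Cre- activated cells. No marker of either list passed, with median differences of 0.70 for B cell and 0.08 for NK markers, and with 5 B cell and 2 NK markers at an unadjusted p under 0.05, and their part in the member values was not tested.

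**Figure D3:**
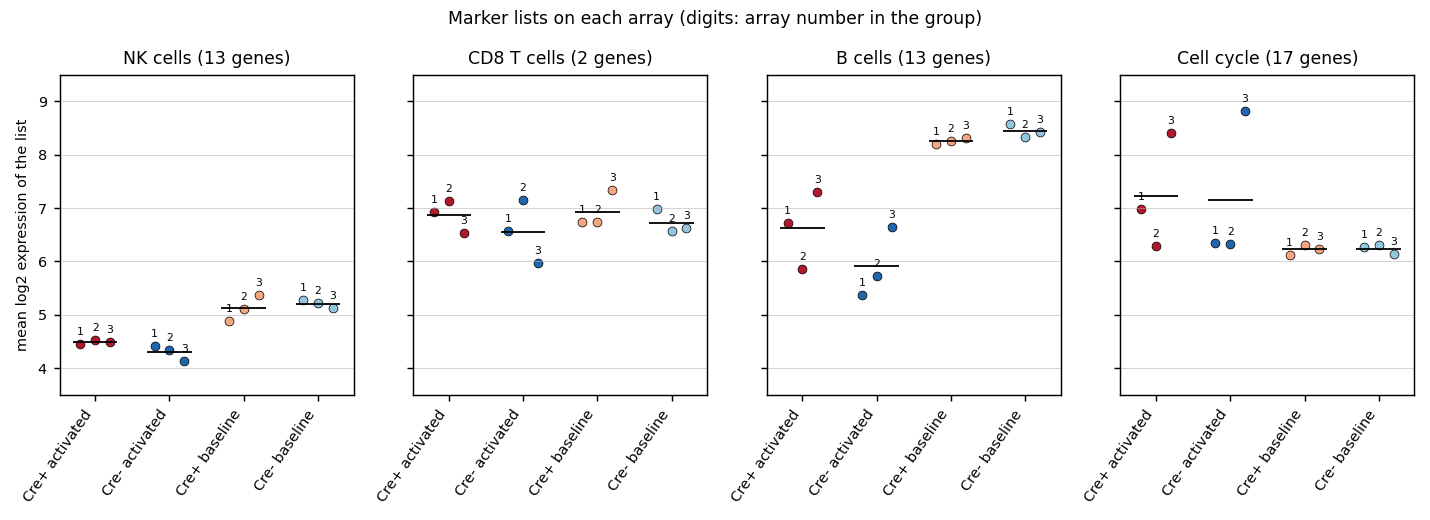
Mean log2 expression of 4 marker lists on each array (points, with the array's number in its group) for Cre+ activated, Cre- activated, Cre+ baseline and Cre- baseline cells, with the group mean as a line. NK and B cell markers are lower in both activated groups, and the cell cycle mean is highest on activated array 3 of each genotype, at 8.40 in Cre+ and 8.81 in Cre- cells.

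Activation split the 10 genes. Gzmb and both serpins rose in Cre+ and in Cre- cells. The granzyme genes Gzma and Gzmk passed as lower in Cre- cells, Prf1 passed as lower in both genotypes, Ctsw passed as lower in Cre+ cells, and Gzmc, Gzmm and Nkg7 did not pass in either. Called were 5 of 10 genes in Cre+ cells (3 higher, 2 lower), against 20.7% of all genes (10.1% higher and 10.6% lower), and 6 of 10 in Cre- cells (3 higher, 3 lower), against 18.5% of all genes (9.39% higher and 9.1% lower). The share of all genes in Cre+ cells, 4795 genes, was 3148 and 3175 genes without Cre+ activated array 1 or 3. The groups did not overlap for 5 of 10 genes in Cre+ and 7 of 10 in Cre- cells, against 36.7% of all genes in Cre+ and 35.1% in Cre- cells. Each genotype was compared with its own baseline arrays.

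Gzmb had the largest rise of the 10 in both genotypes. In Cre+ cells it read 8.48, 7.76 and 8.79 after activation, against 3.72, 3.45 and 4.05 at baseline, which is 4.60 log2 units or 24.3-fold higher (SE 0.31, limma adjusted p = 2.66e-06). In Cre- cells it read 7.45, 7.62 and 8.47 after activation, against 3.58, 4.07 and 3.35 at baseline, which is 4.18 log2 units or 18.1-fold higher (SE 0.31, limma adjusted p = 6.38e-06). The baseline readings lay near or below the array medians, so these folds compare readings and may not be ratios of transcript amounts. Serpinb9, whose product inhibits granzyme B, rose with it, by 2.46 in Cre+ cells (SE 0.21, 5.51-fold) and by 2.06 in Cre- cells (SE 0.21, 4.16-fold). Serpinb6b averaged 8.76 ± 0.05 after activation and 6.80 ± 0.15 at baseline in Cre+ cells (SD, n = 3 each), a difference of 1.96 (SE 0.13), and 8.21 ± 0.22 after activation and 5.47 ± 0.12 at baseline in Cre- cells, a difference of 2.74 (SE 0.13). All activated arrays of these 3 genes lay above all baseline arrays of the same genotype, and the 6 calls held in every alternative setting.

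Gzma, whose product is a target of Serpinb6b, passed as lower after activation in Cre- cells. It read 3.19, 3.41 and 4.47 in Cre+ cells after activation, against 4.96, 4.33 and 4.72 at baseline (-0.98, SE 0.37, limma adjusted p = 0.0854). Without Cre+ activated array 3, which read 4.47, that difference was -1.37 and passed (limma adjusted p = 0.0201), and it also passed without Cre- activated array 3 (limma adjusted p = 0.0425). In Cre- cells Gzma read 2.29, 2.88 and 3.56 after activation, against 5.34, 4.63 and 4.72 at baseline, and the groups did not overlap (-1.99, SE 0.37, limma adjusted p = 0.00326). These Cre- activated readings, and the Cre+ activated readings of 3.19 and 3.41, lay below the array medians. The sizes of these differences may therefore not be ratios of transcript amounts.

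**Figure D4:**
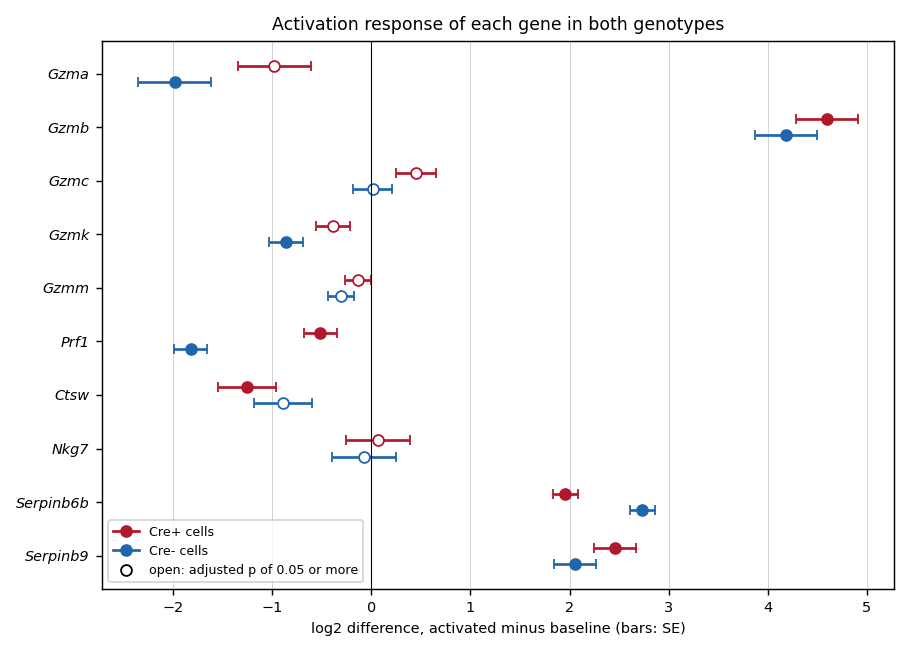
Log2 difference of activated minus baseline cells for each of the 10 genes in Cre+ and in Cre- cells, with the SE of the limma fit as bars. Filled points have an adjusted p under 0.05, and the responses of Gzmb (4.60 in Cre+, 4.18 in Cre-) exceed those of all other genes shown.

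Perforin was lower after activation in both genotypes. In Cre+ cells Prf1 read 5.26, 5.17 and 4.74 after activation, against 5.41, 5.67 and 5.64 at baseline. All 3 activated Cre+ arrays lay below the baseline arrays, and the difference of -0.52 (SE 0.17) just passed (limma adjusted p = 0.0473). That call was lost in 13 of 19 alternative settings, in which the adjusted p reached 0.189 (a difference of -0.36) without Cre+ activated array 3. It was also lost without Cre- activated array 1 or any 1 of the 6 baseline arrays. In Cre- cells Prf1 read 5.37, 5.49 and 4.98 after activation, against 7.03, 7.25 and 7.02 at baseline, and this fall passed in all 19 settings (-1.82, SE 0.17, limma adjusted p = 2.78e-05).

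Ctsw fell with activation in Cre+ cells (-1.25, SE 0.29, limma adjusted p = 0.0105) and kept that call in all 19 settings. In Cre- cells it read 6.86, 7.27 and 6.61 after activation, against 7.93, 8.05 and 7.43 at baseline, again without overlap, and its difference of -0.89 (SE 0.29) did not pass (limma adjusted p = 0.0555). It passed in 8 of 19 settings, 3 of which left out 1 array. These were Cre+ activated array 2 (limma adjusted p = 0.0314), Cre+ activated array 3 (limma adjusted p = 0.0221) and Cre- activated array 2 (-1.07, limma adjusted p = 0.0441).

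Gzmk passed with activation in Cre- cells. It read 4.62, 4.60 and 4.24 in Cre+ cells after activation, against 5.28, 4.76 and 4.60 at baseline, with overlapping groups and a difference of -0.39 (SE 0.17, limma adjusted p = 0.149). In Cre- cells it read 4.54, 4.57 and 4.43 after activation, against 5.43, 5.50 and 5.19 at baseline, and fell by 0.86 on the log2 scale without overlap (SE 0.17, limma adjusted p = 0.00501). The difference between these responses, 0.47, did not pass (limma adjusted p = 1.000).

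Granzyme M, which cleaves after methionine, had a low and even reading. Gzmm lay between 3.94 and 4.58 over all 12 arrays, with activation differences of -0.14 in Cre+ and -0.31 in Cre- cells (SE 0.13 each). Gzmc, a neighbour of Gzmb on chromosome 14, lay between 1.45 and 2.59, below every array median, with differences of 0.45 in Cre+ and 0.01 in Cre- cells (SE 0.20 each). The Cre+ difference of Gzmc was 0.67 without Cre+ activated array 2 and then passed (limma adjusted p = 0.0190). Nkg7 differed by 0.07 in Cre+ and -0.07 in Cre- cells (SE 0.32 each), and its Cre+ difference was -0.39 without Cre+ activated array 2.

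Markers of other cells moved with activation too, where 10.6% of all genes were called lower in Cre+ and 9.1% in Cre- cells. Of the 13 NK markers, 6 fell and 2 rose (Il2rb and Eomes) in Cre+ cells, and 8 fell and 1 rose (Il2rb) in Cre- cells. Their mean was 4.46 to 4.54 in Cre+ activated cells, against 4.89 to 5.38 in Cre+ baseline cells, and 4.14 to 4.42 in Cre- activated cells, against 5.13 to 5.28 in Cre- baseline cells. B cell markers fell in 9 of 13 genes in Cre+ and 12 of 13 in Cre- cells, and myeloid markers in 10 of 13 in Cre+ and 11 of 13 in Cre- cells. Neither CD8 T cell marker passed in any of the 5 comparisons (limma, 0 at an unadjusted p under 0.05). The part of these markers in the lower Gzma, Gzmk, Prf1 and Ctsw readings was not tested.

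Whether activation acted differently in the 2 genotypes was asked with the difference of the responses, Cre+ minus Cre-, in the same limma model. None of the 10 genes passed, against 0.00863% of all genes (2 genes, and 25, 5 or 8 without Cre+ activated array 2, Cre+ activated array 3 or Cre- activated array 3). At an unadjusted p under 0.05 the count was 2 of 10, against 4.7% of all genes. These were Prf1, with a difference of 1.31 (SE 0.23, unadjusted p = 0.000142, limma adjusted p = 0.221), and Serpinb6b, with -0.78 (SE 0.18, unadjusted p = 0.00106, limma adjusted p = 0.347). Prf1 had a response of -0.52 in Cre+ cells, against -1.82 in Cre- cells, and Serpinb6b 1.96 in Cre+ cells, against 2.74 in Cre- cells. Without both activated arrays numbered 3 the Prf1 difference passed at the same 1.31 (limma adjusted p = 0.0375). The 10 differences ran from -0.78 to 1.31, with a median of 0.41, against -0.02 for all genes.

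Genes that work beside the 10 were described from lists by role. Between genotypes, 0.552% of all genes were called at baseline and 0.729% after activation. At an unadjusted p under 0.05 these shares were 6.93% and 7.51%. The 8 other granzyme and protease genes of the Gzmb cluster lay between 1.18 and 3.20 on every array, below all array medians. None passed between genotypes, with 2 after activation and 1 at baseline at an unadjusted p under 0.05. Among them Gzmd alone passed in any comparison over all arrays, with -0.48 for activation in Cre+ cells (limma adjusted p = 0.0198). That call was lost without Cre+ baseline array 2 or 3 or Cre+ activated array 2 or 3. Gzmn passed for activation in Cre- cells without Cre- activated array 3 (0.45, limma adjusted p = 0.0416). It also passed without both activated arrays numbered 3 (limma adjusted p = 0.0376). Of the 18 other clade B serpins, 15 lay below every array median, and none passed between genotypes in either state (at an unadjusted p under 0.05, 2 after activation and 0 at baseline). Serpinb9b, a close relative of Serpinb9, came nearest after activation, with 0.75 (SE 0.16, limma adjusted p = 0.0788), and passed at 0.95 without Cre+ activated array 2 (limma adjusted p = 0.00618). With activation, Serpinb9b rose in Cre+ cells (1.05) and Serpinb9f in Cre- cells (0.96). Serpinb1a, a relative of the neutrophil elastase inhibitor, fell in both, by 1.91 in Cre+ and 2.38 in Cre- cells on the log2 scale. Of the 18, 1 passed upward and 3 downward in Cre+ cells, and 1 upward and 2 downward in Cre- cells. These counts were near the shares of all genes called, 20.7% in Cre+ and 18.5% in Cre- cells.

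Genes for loading and processing of granule proteins gave 1 genotype call among 16. Igf2r, the mannose 6-phosphate receptor that sorts lysosomal enzymes, was higher in Cre+ baseline cells by 0.85 (SE 0.13, limma adjusted p = 0.0167), a call that was lost without any 1 of the 6 baseline arrays (limma adjusted p 0.0628 to 0.0913). After activation none of the 16 passed, with 3 at an unadjusted p under 0.05. Activation raised 5 and lowered 7 of the 16 in Cre+ cells, and raised 2 and lowered 6 in Cre- cells. Of all genes, 20.7% were called in Cre+ and 18.5% in Cre- cells. Cst7, which encodes the cathepsin inhibitor cystatin F, rose by 1.00 in Cre+ and 1.07 in Cre- cells, while Ctsh, a cathepsin gene, fell, with -1.90 in Cre+ and -2.52 in Cre- cells.

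Of 15 genes for granule transport and release, Stx11, a syntaxin of granule release, passed between genotypes after activation (0.70, SE 0.14, limma adjusted p = 0.0453). That call was lost in 13 of 19 settings, with an adjusted p of 0.261 with only the arrays compared, and 9 of the 13 left out 1 array: Cre+ activated array 1, 2 or 3, Cre- activated array 1 or 2, Cre+ baseline array 1, 2 or 3, or Cre- baseline array 2. Stx11 also rose with activation, by 1.86 in Cre+ and 1.22 in Cre- cells. Rab37 (-2.10 in Cre+, -1.79 in Cre-) and Sytl2 (-0.90 in Cre+, -1.52 in Cre-), both of vesicle transport, fell. In all, 1 gene of the 15 rose and 5 fell in Cre+ cells, against 20.7% of all genes called. In Cre- cells 1 rose and 6 fell, against 18.5%.

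Death ligands, an alternative to granules, were also read. None of the 10 measured genes passed between genotypes in the model with 1 mean per group and all arrays. At an unadjusted p under 0.05 there were 3 after activation and 1 at baseline. Fasl, the ligand of the death receptor Fas, differed by 1.22 after activation (SE 0.27, limma adjusted p = 0.0773) and passed at 1.03 without both activated arrays numbered 3 (limma adjusted p = 0.0193). Tnf differed by 0.52 at baseline (SE 0.12, limma adjusted p = 0.104), and passed at the same value without those arrays (limma adjusted p = 0.0346). Activation raised 6 and lowered 2 of the 10 in Cre+ cells, where 20.7% of all genes were called. It raised 3 and lowered 1 in Cre- cells, where 18.5% of all genes were called. The cytokine genes Lta (2.67 in Cre+, 2.36 in Cre-) and Tnf (1.92 in Cre+, 1.97 in Cre-) rose, and Tnfsf10, which encodes TRAIL, fell by 1.03 in Cre+ and 0.98 in Cre- cells on the log2 scale.

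Among 27 factors known from other work to control cytotoxic genes, Irf4 was higher in Cre+ baseline cells by 0.95 (SE 0.12, limma adjusted p = 0.00317) and passed in all 19 settings. After activation Bhlhe40 (0.74, SE 0.10, limma adjusted p = 0.00490) and Stat5a (0.60, SE 0.10, limma adjusted p = 0.0209) were higher in Cre+ cells. Bhlhe40 lost its call only with the arrays compared alone (limma adjusted p = 0.157), and Stat5a in 7 of 19 settings, 4 of which left out 1 array (Cre+ activated 1 or 3, Cre- activated 1 or 2). With activation 9 of the 27 rose and 6 fell in Cre+ cells, against 20.7% of all genes called. In Cre- cells 8 rose and 7 fell, against 18.5%. Irf4 (2.90 in Cre+, 3.74 in Cre-), Bhlhe40 (3.06 in Cre+, 2.35 in Cre-) and Tbx21, the gene of the Th1 factor T-bet (2.36 in Cre+, 2.34 in Cre-), were among those that rose. No gene of these 6 lists passed in the difference of responses. Between 1 and 3 of each list had an unadjusted p under 0.05 there, against 4.7% of all genes.

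The genes whose profile over the 12 arrays was most like a member's were ranked by the root mean square difference of centred log2 values. Predicted genes, pseudogenes, receptor segments and genes with Gm or Rik names were left out of this ranking. For Gzmb these were Cdkn1a (0.395, Pearson r 0.985), Bcat1 (0.426, r 0.993) and Lad1 (0.525, r 0.986). For Prf1 they were Chil5 (0.256, r 0.950), Cpm (0.264, r 0.950) and Raver2 (0.316, r 0.932), and for Serpinb6b Tbkbp1 (0.281, r 0.976), Clic4 (0.335, r 0.967) and Il2ra (0.351, r 0.966), the gene of the IL-2 receptor alpha chain. The 12 arrays share 4 groups, so these coefficients mostly describe group means. Cpm had the Prf1 order at rest, averaging 6.86 in Cre+ baseline and 7.99 in Cre- baseline cells, and Il2ra the Serpinb6b order, averaging 8.95 in Cre+ baseline and 8.47 in Cre- baseline cells.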

How the data were processed

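RNA of 12 samples in 4 groups was read on Mouse Gene arrays. The deposited values are log2 expression, which the authors summarised by RMA per the submitters' processing notes, which also name the affy package (1.36.1) and R (2.15.1). The chip definition file and the build are unnamed in the labels and headers. Of 25206 probe sets, 23185 matched 1 symbol in the platform annotation and were tested, and 2021 without a symbol were left out. All 12 arrays entered a single linear model with 1 coefficient for each group, in limma 3.58.1 under R 4.3.3, with no filter on dim genes. The 5 comparisons were contrasts of it, and a gene was called where its two-sided p, adjusted by Benjamini-Hochberg across every gene, was under 0.05. The model had 8 residual and 3.55 prior degrees of freedom. The fit was run on simulated data with independent noise on each array and with changed genes in the Cre+ baseline group only. These data did not model how the activated arrays numbered 3 stood apart. Values with ± are means and SD of 3 arrays, and SE is that of the model.

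Members and lists were chosen with earlier results of these data known. Named were the 10 members, up to 4 genes a list with the smallest adjusted p among those passing (up to 2 by p where fewer than 2 passed), cell markers at any value, and the 3 genes most like Gzmb, Prf1 and Serpinb6b. The 19 alternatives were a replicate block, only the arrays compared, a variance trend with robust moderation, quantile normalization, a mean of at least 5, leaving out both activated arrays numbered 3, sex as a covariate, and each of 12 arrays left out. Sex was read from whichever of Xist and Eif2s3y was higher.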

Additional observations from a re-analysis of the deposited data

How the results depend on the processing

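The number of arrays limits what these comparisons resolve, and whether dim genes such as Gzmc lay above background was not tested. The cause of each change below was not tested. The count of all genes called between genotypes at baseline, 128 over all arrays, was 251 with only the arrays compared, 83 with a mean of at least 5, 266 without both activated arrays numbered 3, 85 with sex as a covariate, and 50 to 199 with 1 array left out. After activation the count of 169 was 9 with only the arrays compared, 112 with sex, and 72 to 283 with 1 array left out. The count for activation in Cre+ cells ran from 3148 to 5922 with 1 array left out. For the difference of responses the count of 2 was 11 without both arrays numbered 3, 4 with sex, 0 with a mean of at least 5 (limma, adjusted p), and 2 to 25 with 1 array left out.

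The labels' replicate numbers did not always join baseline and activated arrays of the same mouse, by the genes linked to sex. Xist read 2.83 in Cre- baseline array 3 and 9.90 in Cre- activated array 3. It read 10.35 in Cre+ baseline array 1 and 2.87 in Cre+ activated array 1. Whether the numbers pair the samples in another way was not settled, as the correlations of same-numbered and differently numbered arrays overlapped. Between the genotypes after activation, deviations of same-numbered arrays correlated between -0.05 and 0.73, against -0.71 to 0.57 for different numbers. The value of 0.73 was that of the arrays numbered 3, which also stood apart in the cell cycle mean. At baseline the ranges were -0.03 to 0.15 for the same number and -0.17 to 0.05 for different numbers. Between baseline and activated arrays of Cre+ cells they were -0.05 to 0.13 for the same number and -0.15 to 0.13 for different numbers. In Cre- cells they were -0.09 to 0.02 and -0.15 to 0.13. With the replicate block, 5 genes passed in the difference of responses, and 1 of 10 members (Ctsw, limma adjusted p = 0.0120) passed between genotypes after activation, where leaving out 1 array gave 0 to 1. Of the related genes described, the block also let Fasl (limma adjusted p = 0.0449) and Sytl1 (-0.54, limma adjusted p = 0.0369) pass there, and Stx11 did not (0.0834). Without both arrays numbered 3, 1 member (Prf1) passed in the difference of responses. Members called at baseline were 2 in every setting. A mean of at least 5 left out Gzma, Gzmc, Gzmk and Gzmm.

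Only members that were not called turned sign. At baseline, sex as a covariate gave 0.049 for Gzmm and -0.055 for Nkg7, and leaving out 1 array gave -0.084 to 0.27 for Gzmb, -0.25 to 0.0034 for Gzmc, -0.065 to 0.067 for Gzmm and -0.071 to 0.16 for Nkg7. After activation, Gzmk was 0.060 without both arrays numbered 3, 0.039 with sex and -0.089 to 0.10 with 1 array left out, and Nkg7 -0.27 to 0.49. For activation in Cre- cells without both arrays numbered 3, Gzmc was -0.018 and Nkg7 0.11, and with 1 array left out -0.071 to 0.13 and -0.24 to 0.11. With 1 array left out, Nkg7 ran from -0.39 to 0.36 for activation in Cre+ cells and from -0.32 to 0.43 for the difference of responses.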

Other observations

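Eomes, the T-box factor gene of killer lymphocytes, spread widely in Cre+ activated cells, with 9.38, 6.90 and 8.97, against 7.01, 6.79 and 7.01 in Cre- activated cells. Cre+ array 2 lay within the Cre- range, and the difference of 1.48 did not pass (SE 0.47, limma adjusted p = 0.316). Eomes rose with activation in Cre+ cells by 2.57 (limma adjusted p = 0.00286), and in Cre- cells its difference was 1.22 (limma adjusted p = 0.102). Klrd1 went the other way with activation, by -1.76 in Cre+ cells (limma adjusted p = 0.00355) and -3.01 in Cre- cells (limma adjusted p = 0.000112).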
